A study of Mus musculus with 12 samples.

Results

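Hearts of mice that overexpressed CIP were compared 8 weeks after transverse aortic constriction (TAC) or sham surgery, with 3 CIP-OE-TAC hearts against 3 CIP-OE-Sham hearts, which are 6 of the 12 libraries of the series. All 13392 genes with a normalized count of at least 10 in at least 3 of the 12 libraries were tested, of 53882 in the table. CIP, cardiac ISL1-interacting protein, is the product of the gene listed as Mlip. CIP-OE mice carried a Rosa-CIP allele with a floxed stop and the aMHC-Mer-Cre-Mer transgene, in which the cardiomyocyte promoter aMHC drives a Cre recombinase between mutated estrogen receptor domains, and tamoxifen given after surgery released CIP. Control (Ctrl) hearts came from CIP-KI-flox littermates without Cre, 3 after sham surgery and 3 after TAC, and no source used here says whether they received tamoxifen. Both CIP-OE groups thus carried the transgene and activated Cre, while in any contrast with Ctrl hearts CIP and activated Cre cannot be told apart. All mice were 4 months old, of strain C57BL/6, and sham surgery left out the ligature. Animals differed between groups, and nothing in the sources used here says whether they were operated on the same days.

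TAC narrows the aorta and raises the pressure against which the left ventricle ejects. The loaded ventricle is known to thicken, to reactivate fetal genes such as those of the natriuretic peptides, skeletal actin and beta myosin, to deposit extracellular matrix, and to lower genes of fatty acid oxidation and of repolarizing potassium currents. The comparison asks which of these changes were measured in hearts in which CIP was induced after the load had been imposed.

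The libraries of the 6 CIP-OE hearts held 6990445 to 7501008 reads in genes, with 45.3 to 54.0% of the reads in mitochondrial genes after sham surgery and 41.9 to 47.9% after TAC. Values below are normalized counts, read counts divided by 1 factor per library, and are listed for animals KI_Sham_3643, KI_Sham_3644 and KI_Sham_3737 (CIP-OE-Sham) and then KI_TAC_3577, KI_TAC_3579 and KI_TAC_3587 (CIP-OE-TAC), where KI in a name stands for CIP-OE. Fold changes are log2 differences of log2(normalized count + 1) with their standard error (SE). A gene passed where its p-value from limma, adjusted by Benjamini-Hochberg over the 13392 genes, was under 0.05, and was called where its fold change also exceeded 1.5. The bulk RNA of a heart cannot tell fewer cells of a type apart from less RNA per cell. Some genes that every heart uses, such as Uqcrc1 and Atp5a1 of the respiratory chain, are listed at 0 in all CIP-OE libraries, so a listed 0 is not read as absence.

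Mlip was counted at 5492, 4596 and 1910.5 in CIP-OE-Sham and 5909, 8232 and 5921 in CIP-OE-TAC hearts, and Ctrl hearts had 926 to 1322 after sham surgery and 823 to 936 after TAC. Every CIP-OE heart was above every Ctrl heart, with animal KI_Sham_3737 the lowest of the 6. The groups of CIP-OE hearts did not overlap, but the difference of 0.86 ± 0.34 (SE) did not pass (adjusted p = 0.316). Its 95% interval, not adjusted for the number of genes, was 0.10 to 1.62, so a higher transgene level in the TAC hearts remains possible, and its part in the results below was not tested. Esr1, whose estrogen receptor sequence the Cre transgene carries in part, was counted at 15295, 19341 and 22247 in CIP-OE-Sham and 15398, 24178 and 9528 in CIP-OE-TAC hearts and at 8.48 to 62.1 in the 6 Ctrl hearts. The Esr1 levels of the CIP-OE groups overlapped, with a difference of -0.30 (adjusted p = 0.935).

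Few genes passed the test for a TAC effect in CIP-OE hearts. Among called genes with a mean of at least 50 normalized counts over the 6 CIP-OE libraries, predicted genes left out, the largest rises were those of Nppa, Nppb, Ctgf and Ankrd1, and Clcn1, Mylk4 and Kcnj3 were among the 20 largest falls. Of 13392 genes, 98 (0.732%) were called higher and 64 (0.478%) lower, together 1.21%, and the CIP-OE groups did not overlap for any of the 162, where 9.62% of all genes were higher without overlap and 9.14% lower. This separation largely follows from the calls, which rest on the same values, and adds nothing to them. At an unadjusted p under 0.05, 902 genes (6.74%) were higher and 789 (5.89%) lower. The same contrast in Ctrl hearts called 2254 genes (16.8%) higher and 1837 (13.7%) lower, and those 2 contrasts share no library, but they share 1 estimate of the spread. These counts are without a correction for the GC content of genes. It went with the fold change in Ctrl hearts (Spearman 0.64) and much less in CIP-OE hearts (0.08). The median over all genes was 0.0034 in CIP-OE and 0.0022 in Ctrl hearts.

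The number of calls depended on single libraries and on how the spread was modelled. With 1 of the 6 CIP-OE libraries left out, 38 to 228 genes were called. Without animal KI_TAC_3587 there were 38, without KI_TAC_3577 there were 41, without KI_Sham_3643 there were 56, without KI_Sham_3737 there were 81 and without KI_Sham_3644 there were 84, while leaving out KI_TAC_3579 gave 228. A core of 24 of the 162 calls, 17 higher and 7 lower, held without any 1 of these libraries. Ctrl libraries enter through the shared estimate of the spread, and the calls lower fell from 64 to 40 without Ctrl_Sham_4010, while the 6 CIP-OE libraries alone gave 265 calls. limma without a trend of the spread on the level called 9 genes, edgeR on recovered reads 106 and DESeq2 264.

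**Figure D1:**
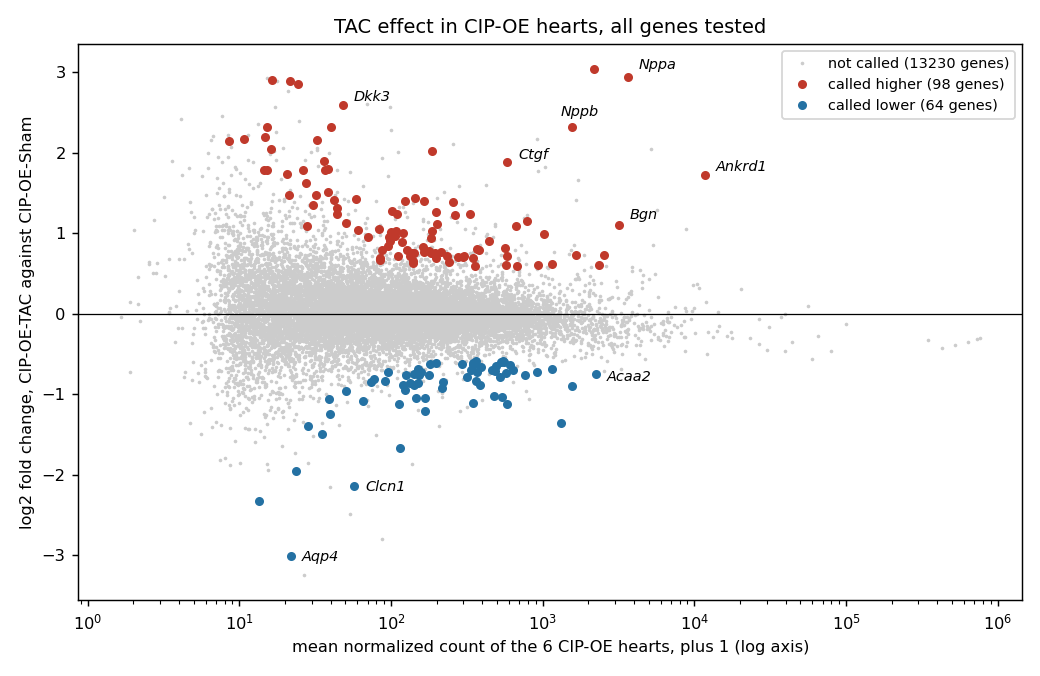
The log2 fold change of CIP-OE-TAC against CIP-OE-Sham (vertical axis) is plotted against the mean normalized count of the 6 CIP-OE hearts plus 1 (horizontal axis, log scale) for each of the 13392 genes tested. Of these, 98 genes called higher are red and 64 called lower are blue. Nppa lies at 2.95 and Aqp4 at -3.001.

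Both natriuretic peptide genes rose after TAC in CIP-OE hearts. Nppa, which encodes atrial natriuretic peptide, a hormone that promotes the loss of salt and water and that loaded ventricles re-express, was counted at 552, 745 and 1252 in CIP-OE-Sham and 5429, 4945 and 8813 in CIP-OE-TAC hearts. All TAC hearts lay well above all sham hearts, with animal KI_TAC_3587 the highest, and the difference was 2.95 ± 0.34 (SE) (adjusted p = 0.00596). Nppb, which encodes brain natriuretic peptide and neighbours Nppa on chromosome 4, was counted at 514, 298 and 836 in CIP-OE-Sham and 2180.5, 2593 and 2863 in CIP-OE-TAC hearts, a difference of 2.32 ± 0.41 (SE) (adjusted p = 0.0392). Nppa passed without any 1 of the 6 CIP-OE libraries. Nppb did not pass without KI_Sham_3643 (adjusted p = 0.118), KI_TAC_3577 (0.104), KI_TAC_3579 (0.0704) or KI_TAC_3587 (0.151). A predicted antisense transcript, Gm13054, which overlaps Nppa on the other strand (chromosome 4 of GRCm38, 148001091 to 148004014, against 148000722 to 148002079) and was named after its values were seen, was counted at 374, 365 and 684 in CIP-OE-Sham and 3508, 2708 and 5506 in CIP-OE-TAC hearts. No source used here states the strand setting, so reads of Nppa and Gm13054 cannot be told apart.

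Of 11 tested genes of the natriuretic system, 2 rose, both of them hormone genes, none fell and the receptors and processing enzymes did not pass. By the same rule 0.754% of all genes rose and 0.508% fell. At an unadjusted p under 0.05, 2 of the 11 were higher and 2 lower, against 6.74% and 5.89% of all genes. Npr1, the receptor through which both hormones raise cyclic GMP, was counted at 117, 151 and 138 in CIP-OE-Sham and 133, 129 and 137 in CIP-OE-TAC hearts, with overlapping groups. The clearance receptor Npr3 had a difference of 0.38 (adjusted p = 0.417), and Corin, the protease that activates the Nppa product, had -0.32 (adjusted p = 0.389). Nppc, the gene of the C-type hormone, is listed at 0 in all 6 hearts.

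The promoters of Nppa, Nppb and Ankrd1, the stress genes with the highest counts among those that rose, are shown because they are textbook targets of the cardiac factors GATA4 and TEAD1. Each run is 250 bases up to the base before the RefSeq start (GRCm38.p6), 5′ to 3′ on the gene's strand. Capitals mark CATTCC, the M-CAT element that TEAD factors bind, and TGATAA or AGATAA, forms of the GATA element, on either strand, with no match overlapping another.
Nppa, chr4:148000472-148000721, plus strand: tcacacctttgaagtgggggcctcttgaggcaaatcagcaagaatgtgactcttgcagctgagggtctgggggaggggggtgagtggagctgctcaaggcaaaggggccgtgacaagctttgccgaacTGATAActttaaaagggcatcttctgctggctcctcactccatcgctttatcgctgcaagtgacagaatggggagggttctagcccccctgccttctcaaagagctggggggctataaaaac
Nppb, chr4:147985650-147985899, plus strand: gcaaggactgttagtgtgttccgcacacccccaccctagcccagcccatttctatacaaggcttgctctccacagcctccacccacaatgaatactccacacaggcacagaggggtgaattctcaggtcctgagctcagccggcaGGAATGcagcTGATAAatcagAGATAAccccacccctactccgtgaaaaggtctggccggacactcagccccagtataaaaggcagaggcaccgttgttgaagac
Ankrd1, chr19:36119845-36120094, minus strand: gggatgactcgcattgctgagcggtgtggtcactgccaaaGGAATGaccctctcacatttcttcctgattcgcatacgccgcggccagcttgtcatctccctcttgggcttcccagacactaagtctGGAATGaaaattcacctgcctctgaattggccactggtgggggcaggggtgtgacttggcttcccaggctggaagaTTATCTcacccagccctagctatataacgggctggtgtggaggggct

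The Nppa window held a single TGATAA, 122 to 117 bases before the start. In the Nppb window an inverted CATTCC stood at 105 to 100 bases, followed by TGATAA at 95 to 90 and AGATAA at 84 to 79. Ankrd1 held inverted CATTCC at 210 to 205 and 123 to 118 bases and an inverted AGATAA at 47 to 42. Of all 32851 RefSeq windows of this length, 12.6% held CATTCC and 16.6% held TGATAA or AGATAA on either strand. Of 98 genes called higher, 72 matched a promoter entry by symbol, and 15 of these (20.8%) held CATTCC, against 10 of 44 (22.7%) called lower and 13.1% of the 9832 tested genes with an entry. The GATA letters were in 8 of the 72 (11.1%), 6 of the 44 (13.6%) and 11.2%. These matches are a description of letters and were not tested.

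Of 16 cardiac stress genes, 5 rose after TAC in CIP-OE hearts (Nppa, Nppb, Ankrd1, Ankrd23 and Tnfrsf12a), none fell and 11 did not pass. All 16 differences were above 0, with a median of 1.34 against 0.0034 over all genes tested, and 0.754% of all genes rose by the same rule. The summed level of the list was 23710.2 to 26757 normalized counts in CIP-OE-Sham and 60899 to 72295 in CIP-OE-TAC hearts. Ankrd1, a stretch-induced ankyrin repeat protein bound to titin in the sarcomere, was counted at 6412, 3392 and 7071 in CIP-OE-Sham and 16646, 15993 and 21072 in CIP-OE-TAC hearts, a difference of 1.73 ± 0.30 (SE) (adjusted p = 0.0227). Its relative Ankrd23 was counted at 75.1, 62.7 and 60.1 in CIP-OE-Sham and 178, 143 and 212 in CIP-OE-TAC hearts, with 1.41 ± 0.19 (SE) (adjusted p = 0.000968). Tnfrsf12a encodes Fn14, the receptor of the cytokine TWEAK, and was counted at 197, 129.7 and 108 in CIP-OE-Sham and 384, 327 and 396 in CIP-OE-TAC hearts, with 1.39 ± 0.21 (SE) (adjusted p = 0.00554). In all 3 genes the groups stood apart. Ankrd23 and Tnfrsf12a passed without any 1 CIP-OE library, and Ankrd1 did not pass without KI_Sham_3643 (adjusted p = 0.0504), KI_TAC_3577 (0.0771) or KI_TAC_3587 (0.102).

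The fetal muscle genes Acta1 and Myh7 were higher in every TAC heart than in any sham heart but did not pass. Acta1, which encodes skeletal alpha actin, was counted at 1826, 3222 and 1201 in CIP-OE-Sham and 9616, 10232 and 5130.1 in CIP-OE-TAC hearts, a difference of 2.05 ± 0.46 (SE) (adjusted p = 0.0763). Myh7, the slow beta myosin heavy chain, was counted at 4394, 2374 and 3236 in CIP-OE-Sham and 7922, 6449.9 and 9661 in CIP-OE-TAC hearts (1.29, adjusted p = 0.131). Xirp2, an actin-binding protein of the intercalated disc, had a difference of 1.05 (adjusted p = 0.0973). The calcineurin regulator Rcan1 had 1.23 (adjusted p = 0.0844). The stress cytokine gene Gdf15 was counted at 4.93, 1.08 and 2.11 in CIP-OE-Sham and 50.2, 7.50 and 34.8 in CIP-OE-TAC hearts, with animal KI_TAC_3579 near the sham hearts (2.89, adjusted p = 0.0990). At an unadjusted p under 0.05, 14 of the 16 stress genes were higher, against 6.74% of all genes. For 15 of the 16 the TAC hearts were higher without overlap, against 9.62% of all genes. The 11 genes that did not pass after adjustment are not shown to be unchanged. DESeq2 on recovered reads passed 12 of the 16 and limma without trend 2.

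**Figure D2:**
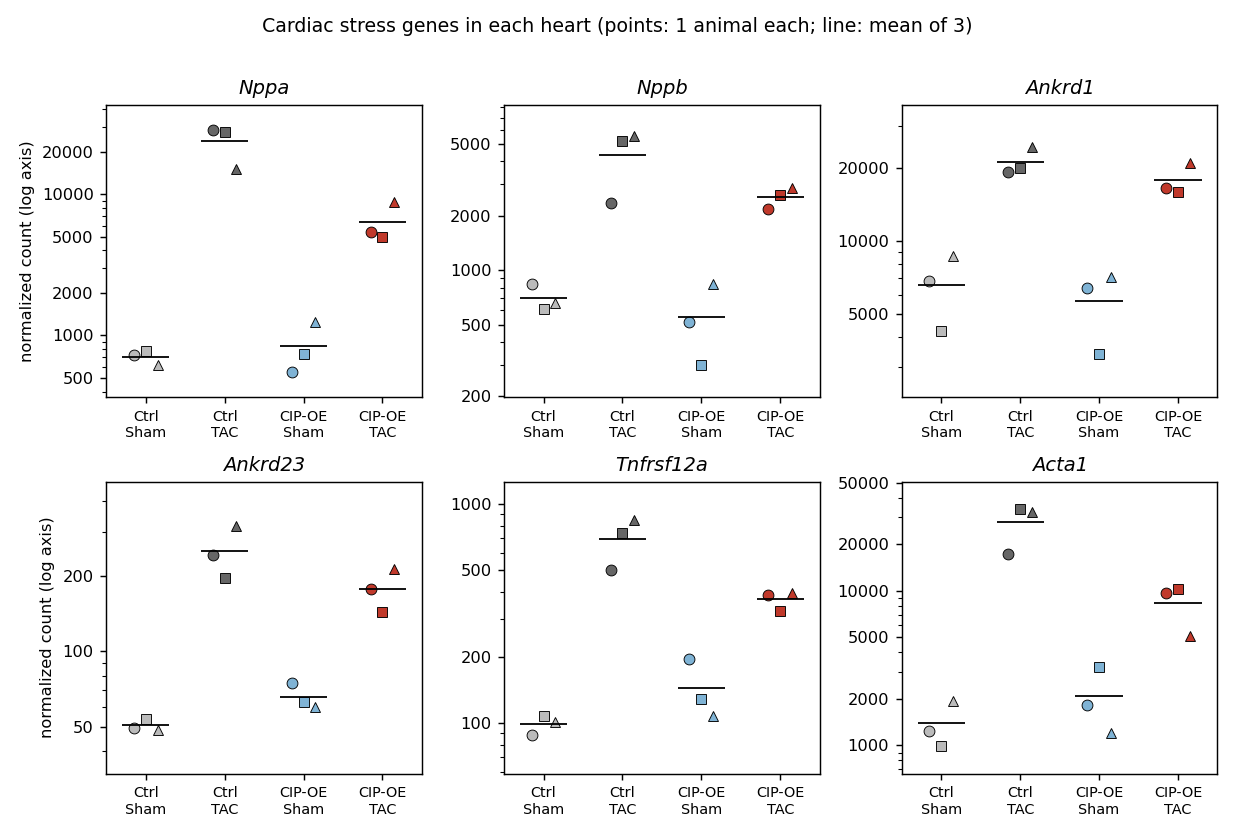
Normalized counts (log axis) of 6 cardiac stress genes in each of the 12 hearts, by group, with 1 point per animal and a line at the mean of 3. In CIP-OE hearts every TAC point lies above every sham point, for example 5429, 4945 and 8813 against 552, 745 and 1252 for Nppa, and the Nppa points of Ctrl-TAC lie higher still, at 15143 to 28675.

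Genes of the matrix and of growth factors that act on it rose in part. Of 46 matrix glycoprotein and proteoglycan genes, 4 rose (Ctgf, Bgn, Fn1 and Emilin1), 1 fell (Ltbp1) and the rest did not pass, with a median of 0.73. By the same rule 0.754% of all genes rose. At an unadjusted p under 0.05, 28 of the 46 were higher and 2 lower, against 6.74% and 5.89% of all genes. DESeq2 on recovered reads passed 19 of the 46 as higher and 1 as lower, edgeR 2 and 1, and limma without trend none. Ctgf, a secreted matricellular protein induced by TGF-beta and by stretch, was counted at 261, 198 and 254 in CIP-OE-Sham and 804, 593 and 1394 in CIP-OE-TAC hearts, a difference of 1.88 ± 0.30 (SE) (adjusted p = 0.0179). Bgn, which encodes the proteoglycan biglycan, was counted at 1592, 2373 and 1997 in CIP-OE-Sham and 3598, 3525 and 5943 in CIP-OE-TAC hearts, with 1.11 ± 0.20 (SE) (adjusted p = 0.0168). The groups of both genes stood apart, and animal KI_TAC_3587 was the highest in each. Fn1, the gene of fibronectin, was counted at 239, 288 and 292 in CIP-OE-Sham and 425, 390.1 and 642 in CIP-OE-TAC hearts and rose by 0.80 (adjusted p = 0.0402). Emilin1, an elastic fibre glycoprotein gene, rose by 0.84 (adjusted p = 0.0403), whereas Ltbp1, which encodes a protein that holds latent TGF-beta in the matrix, had -0.62 (adjusted p = 0.0218). Ltbp1 reached 0.129 without KI_TAC_3577. Fn1, Emilin1 and Ltbp1 were named after their values were seen.

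Of 21 collagen genes, 3 rose (0.754% of all genes did) and none fell, with a median of 0.42. At an unadjusted p under 0.05, 11 of the 21 were higher, against 6.74% of all genes. Col8a1, a short-chain collagen gene, was counted at 160.1, 223 and 197 in CIP-OE-Sham and 413, 353 and 640.0 in CIP-OE-TAC hearts, a difference of 1.24 ± 0.25 (SE) (adjusted p = 0.0320). Col16a1 was counted at 23.4, 24.9 and 21.1 in CIP-OE-Sham and 40.4, 49.7 and 101 in CIP-OE-TAC hearts, with 1.31 (adjusted p = 0.0259). Col12a1, named after its values were seen, was counted at 9.85, 16.2 and 7.38 in CIP-OE-Sham and 51.3, 30.0 and 119 in CIP-OE-TAC hearts, with 2.32 (adjusted p = 0.0366). Types XII and XVI are collagens associated with fibrils, and neither is a main fibril-forming chain. The main fibrillar genes overlapped between groups. Col1a1 was counted at 468, 773 and 467 in CIP-OE-Sham and 639.8, 737 and 1120.2 in CIP-OE-TAC hearts (0.55, adjusted p = 0.452). Col3a1 was counted at 702, 1309 and 672 in CIP-OE-Sham and 666, 1245 and 1344 in CIP-OE-TAC hearts (0.28, adjusted p = 0.847). Col3a1 was also named after their values were seen. Of 16 collagen folding and crosslinking genes, only Pcolce, which enhances the cleavage of procollagen, passed, with 0.65 (adjusted p = 0.0473). Before adjustment, 7 of the 16 were higher at p under 0.05.

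Of 27 TGF-beta pathway genes, 3 rose (0.754% of all genes did) and none fell. Before adjustment, 9 of the 27 were higher and 1 lower at p under 0.05, against 6.74% and 5.89% of all genes. Fstl3, which encodes a secreted protein that binds activins, was counted at 30.8, 32.4 and 28.5 in CIP-OE-Sham and 89.5, 68.4 and 94.9 in CIP-OE-TAC hearts, with 1.42 ± 0.23 (SE) (adjusted p = 0.00565). Inhba, which encodes the subunit of activin A, was counted at 12.3, 17.3 and 8.43 in CIP-OE-Sham and 36.0, 32.8 and 52.6 in CIP-OE-TAC hearts, with 1.62 (adjusted p = 0.0168). Tgfb3 was higher by 0.76 (adjusted p = 0.0446) and was named after its values were seen. Among the genes the study examined, Tgfb1 had a difference of 0.49 (adjusted p = 0.169). Dkk3, a secreted glycoprotein gene on both the WNT modulator and the atrial marker list, was counted at 9.85, 7.57 and 15.8 in CIP-OE-Sham and 60.1, 35.6 and 154 in CIP-OE-TAC hearts, with 2.60 ± 0.41 (SE) (adjusted p = 0.00624). Sln and the atrial markers Myl7 and Bmp10 had at most 1.23 normalized counts in any CIP-OE heart. Serpine2, a serine protease inhibitor gene, rose by 0.76 (adjusted p = 0.0402).

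Markers of activated fibroblasts did not pass in the limma fit. None of 12 tested did, but 8 were higher at an unadjusted p under 0.05 (6.74% of all genes), with a median of 1.80, and their summed level was 949 to 1237 in CIP-OE-Sham and 2263 to 5824 in CIP-OE-TAC hearts. DESeq2 on recovered reads passed 5 of the 12, all higher, and edgeR and limma without trend passed none. Postn, the gene of periostin, was counted at 214, 464 and 282 in CIP-OE-Sham and 990.3, 1039.8 and 2527 in CIP-OE-TAC hearts, a difference of 2.18 ± 0.44 (SE) (adjusted p = 0.0605). Cilp was counted at 43.1, 116 and 95.9 in CIP-OE-Sham and 195, 236 and 852 in CIP-OE-TAC hearts (2.11, adjusted p = 0.168). Animal KI_TAC_3587 was again the highest, and Cthrc1 is listed at 0 in all 6. Of 14 fibroblast markers, 1 rose (Medag, 0.96, adjusted p = 0.0418), with a median of 0.48 and a summed level of 10865 to 12430.3 and 12923 to 23588. The part of fibroblast number or activity in the matrix results was not tested. Without animal KI_TAC_3587, Fn1 (adjusted p = 0.198), Emilin1 (0.206), Col16a1 (0.179), Pcolce (0.279), Inhba (0.118), Tgfb3 (0.283), Serpine2 (0.240) and Medag (0.249) did not pass. Col8a1 and Col12a1 reached 0.118 without KI_Sham_3643 and 0.136 without KI_Sham_3737, Ctgf reached 0.0605 without KI_TAC_3577 and Bgn 0.0682 without KI_Sham_3643. Fstl3 and Dkk3 passed without any 1 CIP-OE library.

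**Figure D3:**
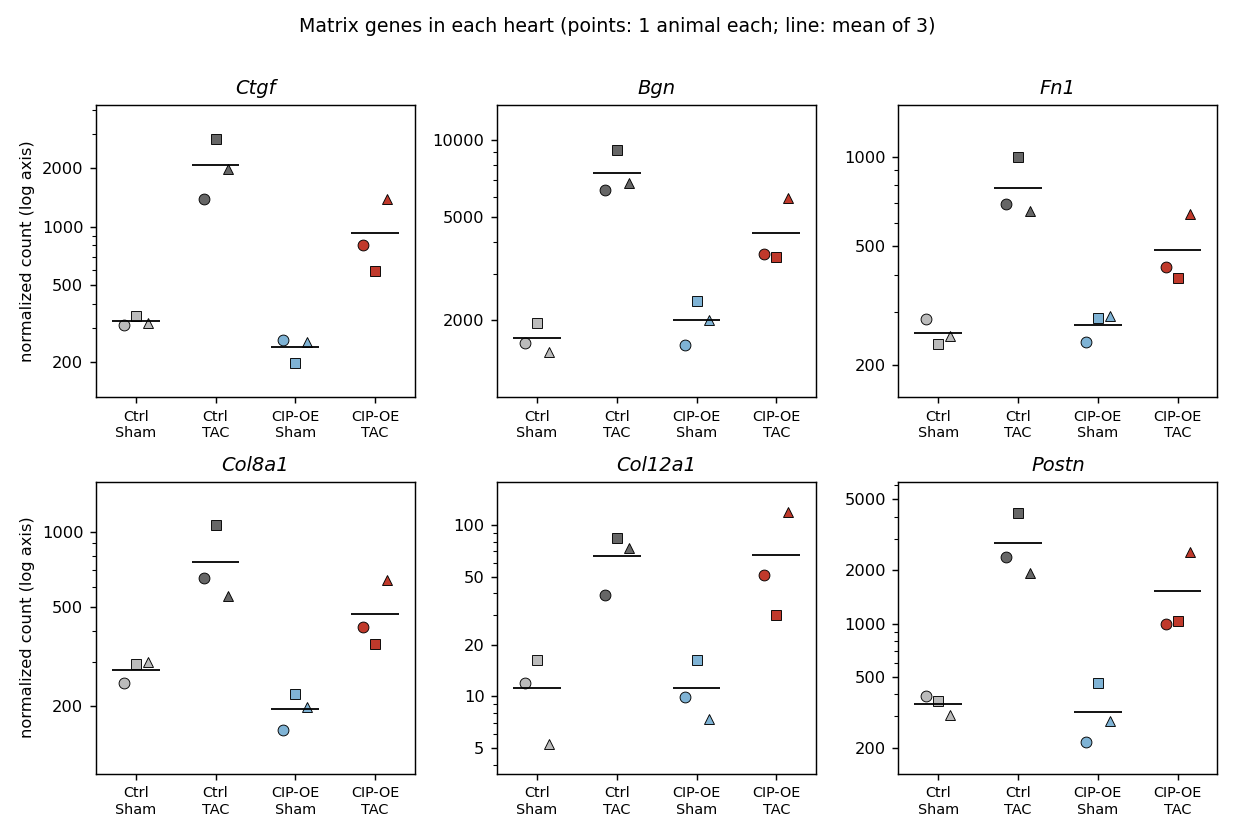
Normalized counts (log axis) of 6 matrix genes in each of the 12 hearts, by group, with 1 point per animal and a line at the mean of 3. The triangle of CIP-OE-TAC is animal KI_TAC_3587, the highest of its group in each panel, and Postn, at 990.3, 1039.8 and 2527 in CIP-OE-TAC, did not pass the test.

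Single genes of the sarcomere and cytoskeleton also rose. Myot, which encodes the Z-disc protein myotilin, was counted at 413, 609 and 439 in CIP-OE-Sham and 1323, 968 and 952 in CIP-OE-TAC hearts, with 1.15 ± 0.19 (SE) (adjusted p = 0.00706). Tpm2, a tropomyosin gene used mainly in slow skeletal fibres, was counted at 46.8, 62.7 and 64.3 in CIP-OE-Sham and 128, 184 and 117 in CIP-OE-TAC hearts, with 1.27 ± 0.22 (SE) (adjusted p = 0.00624). At an unadjusted p under 0.05, 12 of 25 cytoskeleton and tubulin genes were higher, against 6.74% of all genes. After adjustment 2 rose and none fell. These were Zyx, a focal adhesion protein gene (0.69, adjusted p = 0.0290), and Vim, the intermediate filament gene of non-muscle cells (0.61, adjusted p = 0.0451). Dbn1, an actin-binding protein gene, rose by 1.04 (adjusted p = 0.0179). Myot and Tpm2 passed without any 1 CIP-OE library, whereas Zyx, Vim and Dbn1 reached adjusted p 0.139 without KI_TAC_3577, 0.268 without KI_TAC_3587 and 0.131 without KI_TAC_3587.

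Gnao1 and Emp1 had the smallest adjusted p-values among the rises. Gnao1, which encodes the G protein subunit Go alpha, was counted at 151, 143 and 178 in CIP-OE-Sham and 388, 352 and 366 in CIP-OE-TAC hearts, with 1.23 ± 0.15 (SE) (adjusted p = 0.000808). Emp1, an epithelial membrane protein gene, was counted at 431, 497 and 361 in CIP-OE-Sham and 908, 880.4 and 946 in CIP-OE-TAC hearts, with 1.10 ± 0.14 (SE) (adjusted p = 0.000808). The groups of both genes stood far apart, and both passed without any 1 CIP-OE library. Of 24 immediate early and AP-1 genes, 1 passed, the zinc finger factor gene Klf4 (0.94, adjusted p = 0.0158), with a list median of 0.79. Before adjustment, 10 of the 24 were higher at p under 0.05, against 6.74% of all genes. Ier5, another immediate early gene, was counted at 59.1, 73.5 and 100.2 in CIP-OE-Sham and 175, 203 and 251 in CIP-OE-TAC hearts, with 1.44 (adjusted p = 0.0169). Among insulin-like growth factor genes, Igfbp7 was counted at 729, 641 and 649 in CIP-OE-Sham and 1161, 1204 and 1698 in CIP-OE-TAC hearts, with 0.99 ± 0.17 (SE) (adjusted p = 0.00706), and Igfbp5 rose by 0.62 (adjusted p = 0.0468). Both encode proteins that bind insulin-like growth factors, and the other 24 of the 26 genes tested on that list did not pass. Ace, the angiotensin-converting enzyme gene, was counted at 390.4, 429 and 391 in CIP-OE-Sham and 672, 636 and 847 in CIP-OE-TAC hearts, with 0.82 (adjusted p = 0.00782). Igfbp7 passed without any 1 CIP-OE library. With 1 CIP-OE library left out, the largest adjusted p was 0.0817 without KI_Sham_3643 (Klf4), 0.0851 without KI_TAC_3587 (Ier5), 0.0688 without KI_TAC_3587 (Ace) and 0.211 without KI_TAC_3587 (Igfbp5).

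Others among the 20 largest rises were Trim47, a ubiquitin ligase gene of the TRIM family (1.06, adjusted p = 0.00706), Fxyd5, a regulator of the sodium pump (1.12, adjusted p = 0.0243), Cnksr1, a scaffold gene of the Ras pathway (1.25, adjusted p = 0.0290), and Hectd2os (1.26, adjusted p = 0.00554). Hectd2os is annotated on the strand opposite Hectd2, whose own difference was 0.92 (adjusted p = 0.0672), and their reads in overlapping parts cannot be told apart. Of these Hectd2os passed without any 1 CIP-OE library, and the others reached adjusted p 0.0562 without KI_TAC_3577 (Trim47), 0.108 without KI_Sham_3737 (Fxyd5) and 0.135 without KI_TAC_3577 (Cnksr1). Hectd2 was named after its values were seen. Single members passed on the lists of the integrated stress response, apoptosis and glucose use. The values, each followed by the largest adjusted p with 1 library left out, were for Slc7a5, a large neutral amino acid transporter gene, with 1.12 (adjusted p = 0.0402) and 0.157 without KI_TAC_3577, Casp12, a caspase gene tied to the endoplasmic reticulum, with 0.91 (adjusted p = 0.0169) and 0.108 without KI_TAC_3587, and Pfkp, a phosphofructokinase gene, with 0.72 (adjusted p = 0.0202) and 0.137 without KI_TAC_3587.

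Some potassium channel genes fell. Of 29 potassium, sodium and pacemaker channel genes, 5 fell (Kcnj2, Kcnj3, Kcnj5, Kcnd2 and Kcnh2) and none rose, with a median of -0.42, while 0.508% of all genes fell by the same rule. Kcnj2 encodes Kir2.1, which carries the inward rectifier current that sets the resting potential, and was counted at 775, 589 and 543 in CIP-OE-Sham and 361, 259 and 319.5 in CIP-OE-TAC hearts, with -1.01 ± 0.16 (SE) (adjusted p = 0.00490). Kcnj3 encodes a subunit of the acetylcholine-activated potassium channel and was counted at 627, 785 and 942 in CIP-OE-Sham and 336, 508 and 261 in CIP-OE-TAC hearts, with -1.12 ± 0.22 (SE) (adjusted p = 0.0226). Its partner subunit Kcnj5 was counted at 366, 451 and 578 in CIP-OE-Sham and 219, 337 and 226 in CIP-OE-TAC hearts, with -0.83 (adjusted p = 0.0228). In these genes no TAC heart reached the lowest sham heart. Kcnd2, a subunit of the transient outward current channel, was counted at 207, 199 and 266 in CIP-OE-Sham and 143, 149 and 105 in CIP-OE-TAC hearts, with -0.76 (adjusted p = 0.0415). Kcnh2, the ERG channel of the rapid delayed rectifier current, was counted at 336, 391 and 530.3 in CIP-OE-Sham and 255, 269 and 239.6 in CIP-OE-TAC hearts, with -0.69 (adjusted p = 0.0450). Kcnj5, Kcnd2 and Kcnh2 were named after their values were seen. Kcnj2 passed without any 1 CIP-OE library. The largest adjusted p of the others was 0.103 (Kcnj3) and 0.131 (Kcnj5) without KI_TAC_3577, 0.240 (Kcnd2) without KI_TAC_3587 and 0.198 (Kcnh2) without KI_Sham_3737.

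Other membrane proteins were among the largest falls. Aqp4, a water channel gene, was counted at 39.4, 28.1 and 44.3 in CIP-OE-Sham and 2.18, 10.3 and 1.88 in CIP-OE-TAC hearts, with -3.001 ± 0.46 (SE) (adjusted p = 0.00463). Its counts after TAC are a few reads, so the size of this fall is imprecise, but it passed without any 1 CIP-OE library. Clcn1, the chloride channel gene best known from skeletal muscle, was counted at 71.4, 67.0 and 138 in CIP-OE-Sham and 17.5, 30.0 and 13.2 in CIP-OE-TAC hearts, with -2.13 ± 0.39 (SE) (adjusted p = 0.0122). Animal KI_Sham_3737 had the highest level after sham surgery, and the groups did not overlap. Adra1b, an alpha-1 adrenergic receptor gene, was counted at 119, 174 and 169 in CIP-OE-Sham and 68.8, 106 and 75.2 in CIP-OE-TAC hearts, with -0.88 (adjusted p = 0.0226). Crhr2, the receptor gene of urocortins, was counted at 188, 143 and 256 in CIP-OE-Sham and 103, 120.0 and 94.0 in CIP-OE-TAC hearts, with -0.85 (adjusted p = 0.0426), and P2ry1, an ADP receptor gene, was counted at 307, 281 and 253 in CIP-OE-Sham and 163, 160.3 and 123 in CIP-OE-TAC hearts, with -0.92 (adjusted p = 0.0259). Slc36a2, a proton-coupled amino acid transporter gene, fell by 1.12 (adjusted p = 0.0334) and Slc40a1, the iron exporter ferroportin, fell by 1.04 (adjusted p = 0.0307). With 1 CIP-OE library left out, the largest adjusted p was 0.0725 without KI_TAC_3587 (Clcn1), 0.130 without KI_TAC_3577 (Adra1b), 0.198 without KI_TAC_3587 (Crhr2), 0.145 without KI_TAC_3587 (P2ry1), 0.126 without KI_TAC_3587 (Slc36a2) and 0.129 without KI_TAC_3577 (Slc40a1).

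Fatty acid transport and oxidation each had a gene that fell. Of 34 fatty acid uptake and oxidation genes, 3 fell, among them Slc27a1 and Acaa2, none rose, and 23 were lower at an unadjusted p under 0.05, against 5.89% of all genes. The median was -0.39. Slc27a1, which encodes the fatty acid transport protein FATP1, was counted at 683, 643 and 840.3 in CIP-OE-Sham and 310.1, 354 and 387 in CIP-OE-TAC hearts, with -1.04 ± 0.13 (SE) (adjusted p = 0.000808). Acaa2, the thiolase of the last step of mitochondrial beta-oxidation, was counted at 2941, 2550.5 and 2898 in CIP-OE-Sham and 1548, 1791 and 1661 in CIP-OE-TAC hearts, with -0.75 ± 0.14 (SE) (adjusted p = 0.0123). For both genes every TAC heart was below every sham heart. For Slc27a1 the CIP-OE-Sham hearts were also above the Ctrl-Sham hearts, which had 435 to 496, a contrast that was not tested here. Lpl, the lipoprotein lipase gene, was counted at 47301, 49333 and 40426 in CIP-OE-Sham and 32435, 35980.2 and 31012 in CIP-OE-TAC hearts and did not pass (-0.46, adjusted p = 0.0721). Slc27a1 passed without any 1 CIP-OE library, while Acaa2 reached 0.0800 without KI_TAC_3577.

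Other metabolic falls that passed were those of single genes. Idh1, the cytosolic isocitrate dehydrogenase, was counted at 587, 571 and 359.5 in CIP-OE-Sham and 224, 280.3 and 302 in CIP-OE-TAC hearts, with -0.89 (adjusted p = 0.00998). Fbp2, the muscle fructose bisphosphatase, had -1.09 (adjusted p = 0.0434), and Pdp2, a phosphatase that activates pyruvate dehydrogenase, had -0.85 (adjusted p = 0.0169). Dbt, the core subunit of the branched-chain keto acid dehydrogenase, was counted at 709, 596 and 619 in CIP-OE-Sham and 347, 498 and 434 in CIP-OE-TAC hearts and fell by 0.60 (adjusted p = 0.0393), and it was the only one of 18 genes of branched-chain amino acid breakdown to pass, with 11 lower at an unadjusted p under 0.05. None of 18 TCA cycle genes passed (median -0.24), but all 18 were below 0. At an unadjusted p under 0.05, 6 of them were lower, against 5.89% of all genes. None of 36 nuclear complex I genes passed (median -0.09), and none reached an unadjusted p under 0.05. None of 41 nuclear genes of complexes II to V passed (median -0.13), nor did any of 12 protein genes of the mitochondrial genome (median -0.36). At an unadjusted p under 0.05, 4 of the 41 were lower and 1 higher, and 3 of the 12 were lower. Idh1 reached 0.0769 without KI_TAC_3577, Fbp2 0.190 without KI_TAC_3577, Dbt 0.197 without KI_TAC_3577, and Pdp2 0.103 without KI_TAC_3587.

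The desmosome gene Dsg2 and the myosin light chain kinase genes Mylk4 and Mylk3 fell as well. Dsg2, the desmoglein of the cardiac intercalated disc, was counted at 953, 949 and 961 in CIP-OE-Sham and 532, 567 and 601 in CIP-OE-TAC hearts, with -0.75 ± 0.12 (SE) (adjusted p = 0.00463), the only one of 16 intercalated disc genes to pass. Its sham values were almost equal, and it passed without any 1 CIP-OE library. Mylk4, a myosin light chain kinase gene, was counted at 1538, 1622 and 2476 in CIP-OE-Sham and 693, 1031 and 522 in CIP-OE-TAC hearts, with -1.35 ± 0.22 (SE) (adjusted p = 0.0122, and 0.0562 without KI_TAC_3577). Mylk3, the cardiac myosin light chain kinase, was counted at 2664, 2813 and 3178 in CIP-OE-Sham and 2028, 2115 and 1813 in CIP-OE-TAC hearts, with -0.54 (adjusted p = 0.0445), and reached 0.231 without KI_TAC_3587. Of 22 adult sarcomere genes Mylk3 alone passed, and Myh6, the adult alpha myosin heavy chain, was counted at 77917, 91761 and 102904 in CIP-OE-Sham and 52024, 84729.8 and 64554 in CIP-OE-TAC hearts, with overlapping groups (-0.46, adjusted p = 0.340). Atp2a2, the calcium pump of the sarcoplasmic reticulum, was counted at 67811, 76476 and 69603 in CIP-OE-Sham and 48372, 52556 and 44722 in CIP-OE-TAC hearts and did not pass (-0.56, adjusted p = 0.0749). None of 28 calcium handling genes passed, and 9 were lower at an unadjusted p under 0.05, against 5.89% of all genes.

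**Figure D4:**
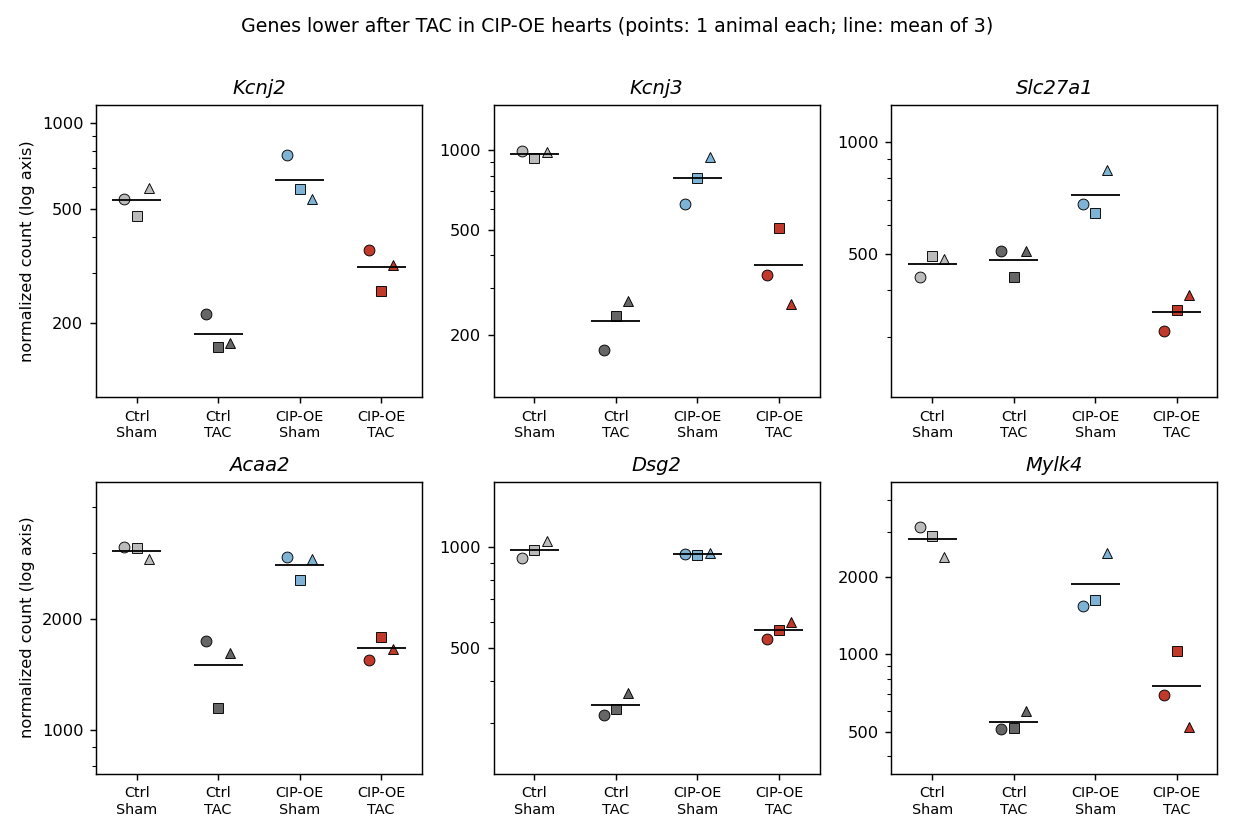
Normalized counts (log axis) of 6 genes lower after TAC in CIP-OE hearts, in each of the 12 hearts by group, with 1 point per animal and a line at the mean of 3. In each panel the CIP-OE-TAC points lie below the CIP-OE-Sham points, and for Slc27a1 the Ctrl groups overlap at 435 to 496 and 433 to 509.

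Few immune and vascular markers passed in CIP-OE hearts. Of 17 macrophage markers 1 rose, F13a1, the A chain of factor XIII, which resident macrophages express, counted at 188, 262 and 229.8 in CIP-OE-Sham and 355, 391.9 and 370.3 in CIP-OE-TAC hearts, with 0.73 (adjusted p = 0.0402), and the adjusted p reached 0.162 without KI_Sham_3643. The list's median was 0.52 and its summed level 1862 to 2169 in CIP-OE-Sham and 2710.0 to 3234 in CIP-OE-TAC hearts. None of 17 endothelial markers passed (median -0.03). None of 26 interferon-stimulated, 16 MHC, 14 complement or 21 cell cycle genes passed either. At an unadjusted p under 0.05, 7 of the 17 macrophage markers and 5 of the 14 complement genes were higher, against 6.74% of all genes. By the same rule 2 interferon-stimulated genes were higher, and no MHC or cell cycle gene was. Neutrophil markers set animal KI_TAC_3579 apart, with S100a9 at 83.4 there and 5.46 and 5.64 in the other TAC hearts. The large falls Iigp1, an interferon-inducible GTPase gene, at -1.11 (adjusted p = 0.0394), and Pla2g5, a secreted phospholipase gene, at -1.05 (adjusted p = 0.0205), stood outside these lists and reached 0.151 without KI_TAC_3587 and 0.118 without KI_TAC_3587.

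Of the 26 genes that the study examined and the table tested, 3 passed in CIP-OE hearts, the natriuretic peptide genes Nppa and Nppb and Igfbp7, all higher. The study took many of these genes from CIP-OE-TAC against Ctrl-TAC hearts, which is not the contrast tested here. By qRT-PCR the study also measured Nppa, Nppb, Acta1 and Fbn1 in TAC and sham hearts of both genotypes. It reported that CIP overexpression repressed their induction, a result about the genotypes. The 3 that passed in CIP-OE hearts alone are therefore no check of its results. Des, the gene of the muscle filament desmin, was counted at 7828, 11079.9 and 9950.0 in CIP-OE-Sham and 11429.7, 11806 and 12577 in CIP-OE-TAC hearts (0.33, adjusted p = 0.298). Fbn1, the fibrillin gene of elastic microfibrils, was counted at 409, 705 and 299 in CIP-OE-Sham and 509.9, 666 and 663 in CIP-OE-TAC hearts (0.46, adjusted p = 0.602). Sod3, the extracellular superoxide dismutase, was counted at 204, 249 and 287 in CIP-OE-Sham and 411, 295 and 428 in CIP-OE-TAC hearts (0.61, adjusted p = 0.192). The groups of Des and Sod3 did not overlap, and those of Fbn1 did. Junb, an AP-1 subunit gene, had 0.81 (adjusted p = 0.127), Bbc3, a p53 target that promotes apoptosis, had 1.46 (adjusted p = 0.143), and Igf1r, the receptor gene of insulin-like growth factor 1, had 0.22 (adjusted p = 0.724).

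The TAC effect in CIP-OE hearts was set beside that in Ctrl hearts, which rests on 6 other libraries. Of the 162 genes called in CIP-OE hearts, 133 were also called in Ctrl hearts in the same direction, 82.1% of the calls in CIP-OE and 3.25% of the 4091 in Ctrl hearts, where 30.5% of all genes were called. Of the 162, 154 had the same sign in Ctrl hearts and 114 a larger fold change there. The difference of the 2 TAC effects, tested as an interaction over all genes, passed for 42 of the 162, and 32 of these were changes of the same sign that were smaller in CIP-OE hearts. Over all genes, 695 calls (5.19%) were higher and 813 (6.07%) lower in the difference, together 11.3%. Without the fold threshold, 5.43% of all genes were higher and 6.18% lower in the difference, and 20.7% and 20.2% in Ctrl hearts. With scaling to totals that left out the mitochondrial and the 20 most abundant genes, the split was 960 higher and 643 lower. The GC content of a gene went with its fold change in Ctrl hearts (Spearman 0.64 across 13264 genes) and in the difference (-0.66), and much less in CIP-OE hearts (0.08). Genes are not independent replicates, and these correlations are descriptions. Removing the GC trend of every library left 102 higher and 74 lower calls in CIP-OE hearts, 156 of them among the 162, but only 47 and 75 in the difference, and of the 42 genes 8 still passed. The part of GC content in the differences was not tested further, so each difference is given with its corrected value. Effects and counts within Ctrl hearts are given without the correction.

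Nppa had a TAC effect of 5.02 in Ctrl hearts, which rose from 724, 776 and 617 to 28675, 27394 and 15143, and a difference of -2.07 (adjusted p = 0.0256, and -1.68 with adjusted p = 0.142 after the GC correction). With 1 library left out, the adjusted p of this difference reached 0.0723. Nppb had 2.54 in Ctrl hearts and a difference of -0.22 (adjusted p = 0.841, and -0.35 with adjusted p = 0.844 after the GC correction). Ankrd1 had 1.75 there, almost the effect in CIP-OE hearts, with a difference of -0.02 (adjusted p = 0.984, and -0.15 with adjusted p = 0.924 after the GC correction). For Nppb and Ankrd1 no difference was detectable with 3 hearts a group. Of the 16, all rose in Ctrl hearts (median 2.05), 3 passed in the difference (Nppa, Ankrd23 and Tnfrsf12a), all lower in CIP-OE, and none after the GC correction.

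Among matrix genes, 34 of 46 glycoprotein and proteoglycan genes rose and 4 fell in Ctrl hearts (median 1.503), and 19 of 21 collagen genes rose (median 1.204). In the difference 8 of the former and 4 of the latter were lower in CIP-OE, and 1 and 0 after the GC correction. Bgn had a difference of -1.02 (adjusted p = 0.0331, and -0.91 with adjusted p = 0.182 after the GC correction), and Pcolce of -1.03 (adjusted p = 0.00824, and -0.67 with adjusted p = 0.170 after the GC correction). Col1a1, the main fibrillar chain, rose in Ctrl hearts by 1.90 (adjusted p = 0.000265), with a difference of -1.35 (adjusted p = 0.0463, and -0.69 with adjusted p = 0.543 after the GC correction). Endothelial markers, which had not passed in CIP-OE hearts, rose in Ctrl hearts for 12 of 17, with 8 lower in the difference and 0 after the correction.

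Of the 29 channel genes, 13 fell and 4 rose in Ctrl hearts, and Kcnj2, Kcnj3 and Kcnj5 fell in both genotypes. Kcnj2 had a TAC effect of -1.55 in Ctrl hearts and a difference of 0.54 (adjusted p = 0.118, and 0.04 with adjusted p = 0.965 after the GC correction). Kcnj3 had -2.12 there and a difference of 0.997 (adjusted p = 0.0483, and 0.63 with adjusted p = 0.385 after the GC correction). Kcnj5 had -1.82 and a difference of 0.98 (adjusted p = 0.0176, and 1.02 with adjusted p = 0.0576 after the GC correction). Dsg2 had -1.54 and a difference of 0.79 (adjusted p = 0.00631, and 0.63 with adjusted p = 0.0504 after the GC correction). Kcnj3, Kcnj5 and Dsg2 thus fell by less in CIP-OE hearts before the correction, and none of the 4 differences passed after it. Slc27a1 went the other way. It was 435 to 496 in Ctrl-Sham and 433 to 509 in Ctrl-TAC hearts (0.03, adjusted p = 0.864), and the difference was -1.07 (adjusted p = 0.00279, and -0.56 with adjusted p = 0.149 after the GC correction).

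Some differences were past the threshold with and without the GC correction. F13a1 rose in CIP-OE hearts and fell in Ctrl hearts, from 530.2, 395 and 339 to 234, 309.6 and 215 (-0.73, adjusted p = 0.00209), and the difference was 1.45 (adjusted p = 0.00188, and 1.196 with adjusted p = 0.0203 after the GC correction). It was the only one of the 162 called in the opposite direction. Mrc1, the mannose receptor gene of resident macrophages, was counted at 193, 195 and 178 in CIP-OE-Sham and 241, 303 and 256 in CIP-OE-TAC hearts and at 402, 335 and 241 in Ctrl-Sham and 128, 160.5 and 148 in Ctrl-TAC hearts, with a difference of 1.62 (adjusted p = 0.00109, and 1.23 with adjusted p = 0.0143 after the GC correction). Lyve1, another marker of resident macrophages and of lymphatic vessels, had a difference of 1.27 (adjusted p = 0.0103, and 1.01 with adjusted p = 0.106 after the GC correction). The Ctrl-Sham hearts were spread widely for F13a1 and Mrc1, with animal Ctrl_Sham_4033 the lowest. For both genes every CIP-OE-Sham heart was below every Ctrl-Sham heart, a contrast that was not tested here, so the differences also hold this gap between sham groups. The F13a1 values of the CIP-OE-TAC hearts lay within the range of the Ctrl-Sham hearts. Timd4 and Cd163, further markers of resident macrophages, did not pass in the difference (adjusted p = 0.0916 and 0.239).

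Igfbp5 rose by 1.70 in Ctrl hearts, with a difference of -1.09 (adjusted p = 0.00476, and -1.04 with adjusted p = 0.0203 after the GC correction). Gpr22, an orphan G protein-coupled receptor gene of the heart, fell from 633, 571 and 596 to 77.6, 77.0 and 46.9 in Ctrl hearts and was counted at 339.9, 615 and 445 in CIP-OE-Sham and 216, 303 and 242 in CIP-OE-TAC hearts, where it did not pass (-0.85, adjusted p = 0.0651), with a difference of 2.33 (adjusted p = 0.00109, and 1.64 with adjusted p = 0.0324 after the GC correction). Klhl33, a kelch family gene called lower in CIP-OE hearts (-0.94, adjusted p = 0.0391, and 0.183 without KI_TAC_3587), had a difference of 1.31 (adjusted p = 0.0120, and 1.33 with adjusted p = 0.0473 after the GC correction). The mitochondrial proline tRNA gene mt-Tp was counted at 4095, 2989 and 3927 in CIP-OE-Sham and 3309, 3706 and 3185 in CIP-OE-TAC hearts, and fell from 4068, 3224 and 3477 to 691, 957 and 851 in Ctrl hearts, with a difference of 2.01 (adjusted p = 3.88e-05, and 1.69 with adjusted p = 0.000192 after the GC correction). Short RNAs such as tRNAs are poorly captured by standard libraries, and every Ctrl-TAC heart was below every other heart for this gene. Fscn1, the actin-bundling protein fascin, rose from 96.3, 114 and 116 to 469, 412 and 406 in Ctrl hearts and was counted at 211, 174 and 180.3 in CIP-OE-Sham and 253, 158 and 165 in CIP-OE-TAC hearts, with a difference of -1.97 (adjusted p = 0.000152, and -1.200 with adjusted p = 0.0151 after the GC correction). Abi3, a regulator of actin assembly, had -1.47 (adjusted p = 0.000570, and -0.76 with adjusted p = 0.0459 after the GC correction), Palm, the gene of the membrane protein paralemmin, had -1.30 (adjusted p = 0.00109, and -0.86 with adjusted p = 0.0206 after the GC correction), and Ctsd, the lysosomal protease cathepsin D, had -1.10 (adjusted p = 0.00143, and -0.65 with adjusted p = 0.0362 after the GC correction). Each of these rose in Ctrl hearts, by 1.42, 1.45 and 1.07, and had -0.05, 0.16 and -0.03 in CIP-OE hearts (adjusted p = 0.931, 0.705 and 0.967).

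**Figure D5:**
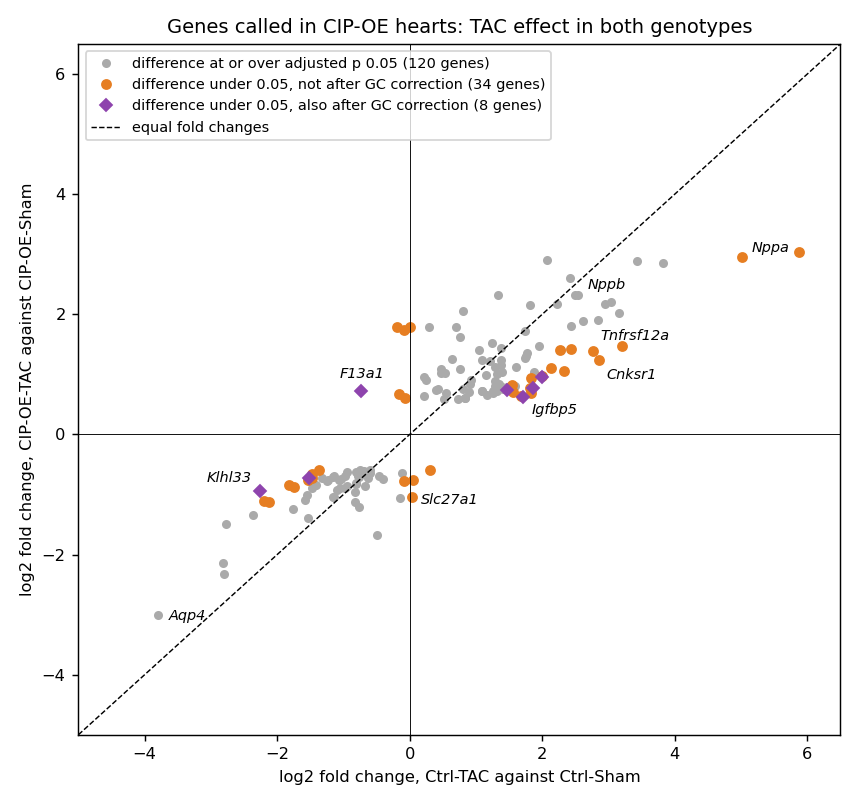
Log2 fold change after TAC in CIP-OE hearts (vertical axis) against that in Ctrl hearts (horizontal axis) for the 162 genes called in CIP-OE hearts, with a dashed line at equal fold changes. Grey points are 120 genes whose difference did not pass, orange points 34 whose difference passed before but not after the GC correction, and purple diamonds 8 whose difference passed in both, among them F13a1, Igfbp5 and Klhl33.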

How the data were processed

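RNA of mouse hearts was sequenced, with 1 library per animal and 3 animals in each of 4 groups. The study's methods do not say which parts of the heart were taken. Mapping with STAR to mm10, counting with featureCounts and testing with DESeq2 are given in the study's methods. According to the submitters' processing notes, DESeq2 1.4.5, StringTie 2.1.4, HISAT2 2.0.4 and GRCm38 were used. The annotation release and strand setting are not given in the sources used here. The deposited values are a signal that the authors made by dividing each gene's read count by 1 factor per library (0.812 to 1.23). All values (100%) came out as whole reads within 0.001, giving 6990445 to 7704812 reads in genes. Of 54515 rows, 633 exact duplicates were removed. Genes with at least 10 in at least 3 libraries were tested with limma 3.58.1 (R 4.3.3) on log2(value + 1), with robust trended empirical Bayes, 1 mean per group and 1 fit of 12 libraries, and the pseudocount of 1 understates changes of low genes. The study's DESeq2 needs counts, so edgeR 4.0.16 and DESeq2 1.42.0 were run as alternatives on recovered reads, leaving out Ctrl-Sham animal 4010, where 1 read is worth 0.993 and which was not used as counts, although its values too came out whole. GC content came from the annotation for 13264 genes, and the correction removed each library's trend of log values on it. The separate animals are the replicates.

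The members and gene lists were chosen with earlier results of these data known. Named were Mlip and Esr1, the genes the study examined, the 20 largest rises and falls among called genes with non-overlapping groups and a mean of at least 50 (predicted genes and pseudogenes left out), the 2 most abundant and the 2 smallest-p members of each list described (any member for lists of up to 20), and the 15 genes with the smallest p in the interaction. Others are stated as named after their values were seen, and some genes that the rule names are not reported here. Alternatives were other pseudocounts, filters, scalings, tools, GC and length corrections and leaving out each library.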

Additional observations from a re-analysis of the deposited data

Results flagged for a closer look

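The genes below stand here because their TAC effect differed between CIP-OE and Ctrl hearts in the limma interaction test, as CIP-OE minus Ctrl on the log2 scale, adjusted by Benjamini-Hochberg over the 13392 genes. Among the genes named, 33 passed, and over all genes 5.43% passed higher and 6.18% lower. These shares are no yardstick for the 33, because some genes were named for their small p in this test. Among those reported here, they are mt-Tp, Fscn1, Abi3, Palm, Mrc1 and Gpr22, whose passing was thus fixed in advance. CIP and activated Cre cannot be told apart in this contrast.

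Of the 33 genes, 10 also passed once the GC trend of every library had been removed. They were F13a1 (1.45, and 1.196 after the correction), Gpr22 (2.33, and 1.64 after the correction), Klhl33 (1.31, and 1.33 after the correction), Mrc1 (1.62, and 1.23 after the correction) and mt-Tp (2.01, and 1.69 after the correction), all positive, and Abi3 (-1.47, and -0.76 after the correction), Ctsd (-1.10, and -0.65 after the correction), Fscn1 (-1.97, and -1.200 after the correction), Igfbp5 (-1.09, and -1.04 after the correction) and Palm (-1.30, and -0.86 after the correction), all negative. F13a1 was called in both genotypes in opposite directions. For mt-Tp, Fscn1, Abi3, Palm, Ctsd, Mrc1 and Gpr22 only the Ctrl effect passed on its own. The 10 include every gene reported here that was named for its small p in this test, while others so named are not reported. Thus 10 of 33 is no estimate of the share of differences that pass after the correction. Over all genes, calls in the difference went from 1508 to 122 with it.

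The other 23 did not pass after the GC correction. For 15 of them the log2 difference became smaller by more than 1.5 times, for 8 it stayed within 1.5 times or grew, and 0 changed sign. Positive differences were those of Dbt (0.78, adjusted p = 0.0168, and 0.32 after the correction), Dsg2 (0.79, adjusted p = 0.00631, and 0.63 after the correction), Iigp1 (1.09, adjusted p = 0.0473, and 0.53 after the correction), Kcnj3 (0.997, adjusted p = 0.0483, and 0.63 after the correction), Kcnj5 (0.98, adjusted p = 0.0176, and 1.02 after the correction) and Lyve1 (1.27, adjusted p = 0.0103, and 1.01 after the correction). Negative differences were those of Ace (-0.72, adjusted p = 0.0305, and -0.30 after the correction), Ankrd23 (-0.86, adjusted p = 0.0411, and -0.42 after the correction), Bgn (-1.02, adjusted p = 0.0331, and -0.91 after the correction), Cnksr1 (-1.61, adjusted p = 0.0134, and -0.99 after the correction), Fstl3 (-1.02, adjusted p = 0.0495, and -0.49 after the correction), Gm13054 (-2.84, adjusted p = 0.0165, and -2.47 after the correction), Klf4 (-0.89, adjusted p = 0.0331, and -0.55 after the correction), Nppa (-2.07, adjusted p = 0.0256, and -1.68 after the correction), Pcolce (-1.03, adjusted p = 0.00824, and -0.67 after the correction), Tnfrsf12a (-1.38, adjusted p = 0.00903, and -0.79 after the correction), Trim47 (-1.27, adjusted p = 0.00610, and -0.29 after the correction) and Zyx (-1.14, adjusted p = 0.00405, and -0.65 after the correction), all of which rose in CIP-OE hearts. Slc27a1, which fell in CIP-OE hearts, had -1.07 (adjusted p = 0.00279, and -0.56 after the correction). Col1a1 (-1.35, adjusted p = 0.0463, and -0.69 after the correction), Des (-1.005, adjusted p = 0.00410, and -0.52 after the correction), Sod3 (-1.17, adjusted p = 0.0205, and -0.95 after the correction) and Tgfb1 (-0.82, adjusted p = 0.0278, and -0.62 after the correction) had negative differences without passing in CIP-OE hearts. Gm13054 shares its locus with Nppa, so their differences are not independent.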

How the results depend on the processing

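For CIP-OE-TAC against CIP-OE-Sham, the calls were 8 higher and 1 lower (9 in all) with limma without a trend, 62 higher and 44 lower (106 in all) with edgeR, 166 higher and 98 lower (264 in all) with DESeq2, both on the recovered reads of 11 libraries, and 166 higher and 99 lower (265 in all) from the 6 CIP-OE libraries alone. GC correction in those 6 alone, chosen after seeing the data, gave 157 higher and 100 lower (257 in all). Over the 12 fits that each left out 1 library the counts ran from 27 to 139 higher, 11 to 89 lower and 38 to 228 in all. Pseudocount, filter, TMM, quantile, total and GC choices on the 12 libraries left the count within 1.5 times. Of 65 named genes that passed in CIP-OE hearts none changed direction. 6 still passed without a trend, 45 with edgeR and all 65 with DESeq2, 21 to 57 without a CIP-OE library and 44 to 65 without a Ctrl library. For the difference between genotypes, the calls were 283 higher and 375 lower (658 in all) without a trend, 328 higher and 415 lower (743 in all) with edgeR, 422 higher and 530 lower (952 in all) with DESeq2, 47 higher and 75 lower (122 in all) after GC and 58 higher and 93 lower (151 in all) after GC and length correction. Leaving out 1 library gave 290 to 867 higher, 417 to 848 lower and 707 to 1715 in all. Of the 33 named differences, 10 passed after GC correction and 20 to 29 without 1 library. Over these leave-out fits the largest adjusted p of the difference was 0.0723 for Nppa, 0.0753 for Klf4 and 0.085 for Bgn. For Ace, Ankrd23 and Fstl3 it was 0.0893, 0.120 and 0.132. It stayed at 0.0228 for Trim47, 0.0313 for Tnfrsf12a, 0.0392 for Cnksr1 and 0.0434 for Gm13054. The cause of these changes was not tested. Signs changed only for genes near no change that did not pass. Fscn1 was 2.9e-05 with a pseudocount of 5, 0.0021 with TMM, 0.017 with library totals, 0.014 with edgeR and 0.023 with DESeq2. Ctsd was 0.045 after quantile normalization, and Npr1 0.0018 with library totals. With 1 library left out, the fold changes ran from -0.20 to 0.041 for Abi3, -0.43 to 0.21 for Cd163, -0.068 to 0.026 for Ctsd, -0.63 to 0.042 for Esr1, -0.22 to 0.12 for Fscn1 and -0.12 to 0.067 for Npr1. No paired analysis was possible because the groups share no animal numbers. With 3 hearts a group an exact test on 1 gene cannot go below p = 0.1, and the depth leaves genes of a few reads imprecise.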
